A study of Mus musculus with 24 samples.

Results

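Oxidative phosphorylation subunits are the nuclear-encoded proteins that build the 4 respiratory complexes (I to IV) and the ATP synthase (complex V) of the inner mitochondrial membrane. Complexes I and II pass electrons from NADH and succinate to ubiquinone, complex III passes them to cytochrome c, and complex IV passes them to oxygen. Complexes I, III and IV pump protons, and complex V uses the proton gradient to make ATP. Dendritic cells activated through Toll-like receptors are known to shift their energy supply from respiration towards glycolysis, and the catalytic cores of several complexes hold further subunits made from mitochondrial DNA, which are not among the genes described here.

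The genes were chosen by symbol: names that start with Ndufa, Ndufb, Ndufc, Ndufs, Ndufv, Uqcr, Cox4 to Cox8 or Atp5, and Sdha to Sdhd, without assembly factors, Cox6a2 and pseudogenes. This gave 84 genes with 113 probes. Of these, 80 genes were measured among 20210 features tested, 37 in complex I, 4 in complex II, 8 in complex III, 14 in complex IV and 17 in complex V. All 80 were well above background on all 24 arrays. The other 4 were Cox7b2, Cox8b and Cox8c, which were above background on no array, and Ndufa4l2, which was above it on 6 arrays at most by probe. The 80 genes are bright on this platform: 51 of them lay among the 2021 brightest features, and their median level was at the 91.9th percentile.

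Total RNA came from bone marrow cells of C57BL/6 mice cultured to day 9 with 100 ng/ml human Flt3 ligand, a growth factor under which marrow precursors become dendritic cells of the plasmacytoid and conventional kinds. The genotypes were WT, Irf5-KO (lacking the transcription factor Irf5), Lyn-KO (lacking a Src-family kinase) and DKO (lacking both), and each was left unstimulated or received 150 nM CpG-B ODN (1668), a synthetic DNA sensed by Toll-like receptor 9, for 6 h. Each of the 8 groups had 3 one-colour Agilent arrays, and all cells, controls included, had been grown in Flt3 ligand. No label states that the 3 arrays came from separate animals or cultures, so p-values measure the spread between these arrays, which may be technical. Detection reached 41.0% to 53.8% of spots by array, with no saturated spot. Of the markers of the labelled cells, all 5 general dendritic cell markers and all 9 plasmacytoid markers were detected, as were all 7 markers of B cells. Lyn signal changed by -1.82 and -1.83 (log2) against WT in unstimulated arrays labelled Lyn-KO and DKO. The 1 Irf5 probe was not called lower in unstimulated Irf5-KO (-0.30, adjusted p = 0.161) or DKO (-0.19, adjusted p = 0.249, limma), and with CpG-B it was higher than in WT in both, by 0.64 and 1.09. Its place relative to the deletion is not given, so it does not check the labels, and Irf5-KO and DKO mean arrays so labelled. In these bulk samples fewer cells of a type and less RNA per cell cannot be told apart.

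Levels are log2 signals relative to the 75th percentile of the array, and changes are differences of group means on that scale with their standard error, 3 arrays a group. A gene was called when its adjusted p was under 0.05 in limma across all features (Benjamini-Hochberg). Groups without overlap were usual: in the WT response this held for 70.9% of all features and for 47 of the 80 members.

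The promoters of the genes with the largest changes are shown first, with 1 element marked that 3 of the 4 genes that fell most hold there. RefSeq promoters (GRCm38.p6) were found for 67 of the 80 genes. The stretches below are the 150 bases just before the start site, and capitals mark the CCAAT box bound by NF-Y, read on either strand (CCAAT or ATTGG). The Ndufa6 stretch lies at chr15:82354292-82354441, Ndufb11 at chrX:20617620-20617769, Ndufs8 at chr19:3912775-3912924, Cox7a2l at chr17:83514334-83514483 and Ndufab1 at chr7:122101849-122101998, all on the minus strand.
Ndufa6: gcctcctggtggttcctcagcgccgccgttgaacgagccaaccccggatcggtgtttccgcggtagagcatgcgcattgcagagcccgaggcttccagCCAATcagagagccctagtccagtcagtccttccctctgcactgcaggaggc
Ndufb11: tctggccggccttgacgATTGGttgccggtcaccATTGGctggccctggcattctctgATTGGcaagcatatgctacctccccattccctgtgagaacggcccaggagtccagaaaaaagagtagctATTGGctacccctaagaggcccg
Ndufs8: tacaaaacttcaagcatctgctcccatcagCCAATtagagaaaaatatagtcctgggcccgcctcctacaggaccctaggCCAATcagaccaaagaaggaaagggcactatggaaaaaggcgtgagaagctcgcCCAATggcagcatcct
Cox7a2l: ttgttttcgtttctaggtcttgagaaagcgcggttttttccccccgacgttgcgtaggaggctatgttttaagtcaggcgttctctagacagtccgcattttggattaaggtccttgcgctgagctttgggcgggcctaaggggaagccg
Ndufab1: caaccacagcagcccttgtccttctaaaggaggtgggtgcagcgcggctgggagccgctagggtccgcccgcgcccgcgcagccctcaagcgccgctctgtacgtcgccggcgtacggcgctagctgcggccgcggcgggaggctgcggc
Ndufa6, Ndufb11 and Ndufs8, which fell, hold 1, 4 and 3 such boxes. Neither Cox7a2l, which fell most, nor Ndufab1, which rose most, holds one in this stretch. Over the 250 bases before the start, the box was in 29 of 67 members (43.3%) and in 37.5% of all 27025 genes with a promoter in the table. It was in 10 of the 22 genes that fell in all 4 genotypes and in 18 of the 41 members not called one way in every genotype, so its share was near that of all promoters. Of the other motifs searched on both strands, none of which contains another, the ETS core CCGGAAG of GABP was in 12 members (17.9%) against 7.83% of all genes. The NRF1 core CGCATGCG was in 7 (10.4%) against 1.75%, the E-box CACGTG in 6 (8.96%) against 6.86%, the YY1 site AAGATGGC in 1 (1.49%) against 1.83%, and the ERR alpha site TCAAGGTCA in 1 (1.49%) against 0.422%. Of the 22 genes that fell in all 4 genotypes, 2 held the ETS core and 2 the NRF1 core, against 10 and 5 of those 41 members. These are letter matches and not binding data.

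In WT cells CpG-B lowered more subunit genes than it raised, and most changes were small. Of the 80 genes, 33 fell and 12 rose, while 37.2% of all features were called lower and 31.2% higher. The share of members called (56.3%) was under that of all features (68.5%), and so was the size. The median change was 0.175 in either direction against 0.51 for all features, and 4 members changed at least 2-fold against 28.0% of all features. With sign, the median was -0.10 for the members, -0.03 for all features and -0.12 for those 2021 brightest features. The split of the calls depended on the scaling: with quantile normalisation 57 members fell and 6 rose in WT, and with normexp background correction before it 54 fell and 7 rose.

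Cell type markers moved with this response in WT, where 37.2% of all features fell and 31.2% rose. Of the type 2 conventional dendritic cell markers 4 of 6 fell and 1 rose, with a mean level of 3.31 to 3.51 unstimulated and 0.60 to 1.05 with CpG-B. Of the type 1 markers 7 of 8 fell and 1 rose (3.14 to 3.36, then 1.83 to 2.08), and of the general dendritic cell markers 2 of 5 fell (5.68 to 5.76, then 4.99 to 5.06). Of the neutrophil markers 6 of 8 fell (1.84 to 1.96, then 0.73 to 0.88), and of the B cell markers 4 of 7 fell and 1 rose (1.64 to 2.10, then 1.25 to 1.40). Of the plasmacytoid markers 5 of 9 rose and 2 fell (4.81 to 5.02, then 5.14 to 5.34). The 2 T and NK cell markers measured went down (-1.62 to -1.02, then -2.52 to -2.33), and the 2 erythroid ones went up (-3.18 to -2.68, then -0.83 to -0.46). Levels overlapped for macrophage and monocyte markers (0.81 to 1.13, then 0.99 to 1.12). They also did for mast cell and basophil markers (-1.58 to -0.91, then -1.81 to -0.96). The part of all these markers in the subunit changes was not tested.

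**Figure D1:**
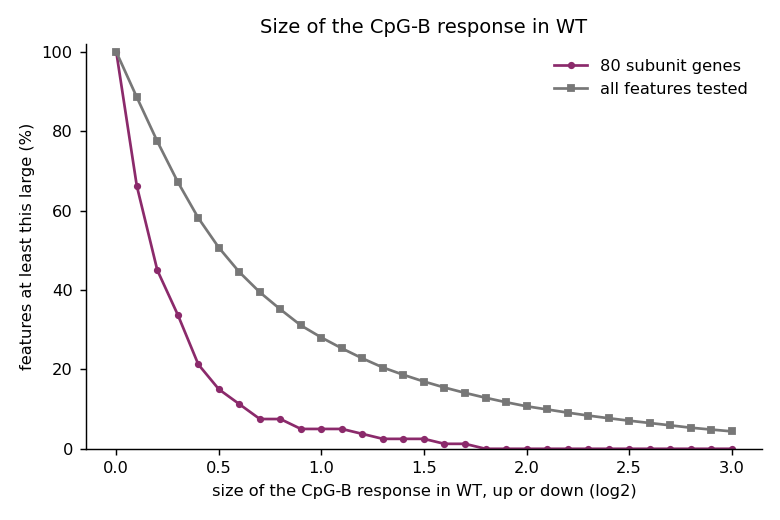
Share of features (y axis, %) whose CpG-B response in WT was at least as large as the value on the x axis (log2, up or down), for the 80 subunit genes and for all 20210 features. The curve of the subunit genes lies below that of all features: at 1 on the log2 axis 5% of members remain against 28.0% of features.

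Of all features 37.2% fell and 31.2% rose in WT, and the counts of each complex below stand beside these shares. Complex I, the NADH dehydrogenase, makes up 37 of the 80 measured genes, and 20 of its genes fell and 5 rose in WT. The largest fall was that of Ndufa6, an accessory subunit of the matrix arm. Its levels in WT were 5.02, 5.12 and 5.10 unstimulated and 3.48, 3.43 and 3.68 with CpG-B, a change of -1.55 ± 0.05 (adjusted p = 5.38e-15, limma). All 3 arrays with CpG-B lay well below all 3 without, and the groups did not overlap. The next was Ndufb11, a subunit of the membrane arm, at 6.61, 6.53 and 6.65 without and 5.22, 5.36 and 5.60 with CpG-B, which is -1.20 ± 0.09 (adjusted p = 6.34e-10). Its second probe gave a larger fall of -2.14, so the direction was shared and the size was not. Ndufs8, a core subunit that carries iron-sulfur clusters on the way to ubiquinone, stood at 3.26, 3.35 and 3.27 and then at 2.47, 2.35 and 2.47 (change -0.86 ± 0.05, adjusted p = 1.64e-11). The spread within each group was under the gap between them.

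Further falls in complex I were those of membrane-arm accessory subunits, Ndufb10 (-0.80 ± 0.05), Ndufb5 (-0.64 ± 0.05, or -1.23 by its second probe) and Ndufb8 (-0.62 ± 0.05). The NADH-binding core subunit Ndufv1 (-0.35 ± 0.06) and its neighbour Ndufv3 (-0.52 ± 0.04) fell too. Core subunits were not uniform: Ndufv2, a core subunit with an iron-sulfur cluster, rose by 0.47 ± 0.05.

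Against this trend Ndufab1 rose most of all 80 genes. It encodes the mitochondrial acyl carrier protein, which serves fatty acid synthesis in the matrix and also sits in complex I, bound to Ndufa6 among others. Its WT levels were 0.03, 0.16 and 0.10 unstimulated and 1.24, 1.21 and 1.16 with CpG-B, a change of 1.11 ± 0.10 (adjusted p = 5.85e-09). The 3 stimulated arrays were all above the 3 unstimulated ones. Ndufs4, an accessory subunit of the matrix arm whose loss is known to cause mitochondrial disease, rose by 0.47 ± 0.05. Smaller calls, Ndufs5 (0.23 ± 0.05) and Ndufa7 (0.14 ± 0.05), turned sign to -0.02 and -0.10 with quantile normalisation, and that of Ndufa7 also ended without WT unstimulated replicate 1 or 2 (0.13 each) or WT CpG-B replicate 2 or 3 (0.12 each).

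**Figure D2:**
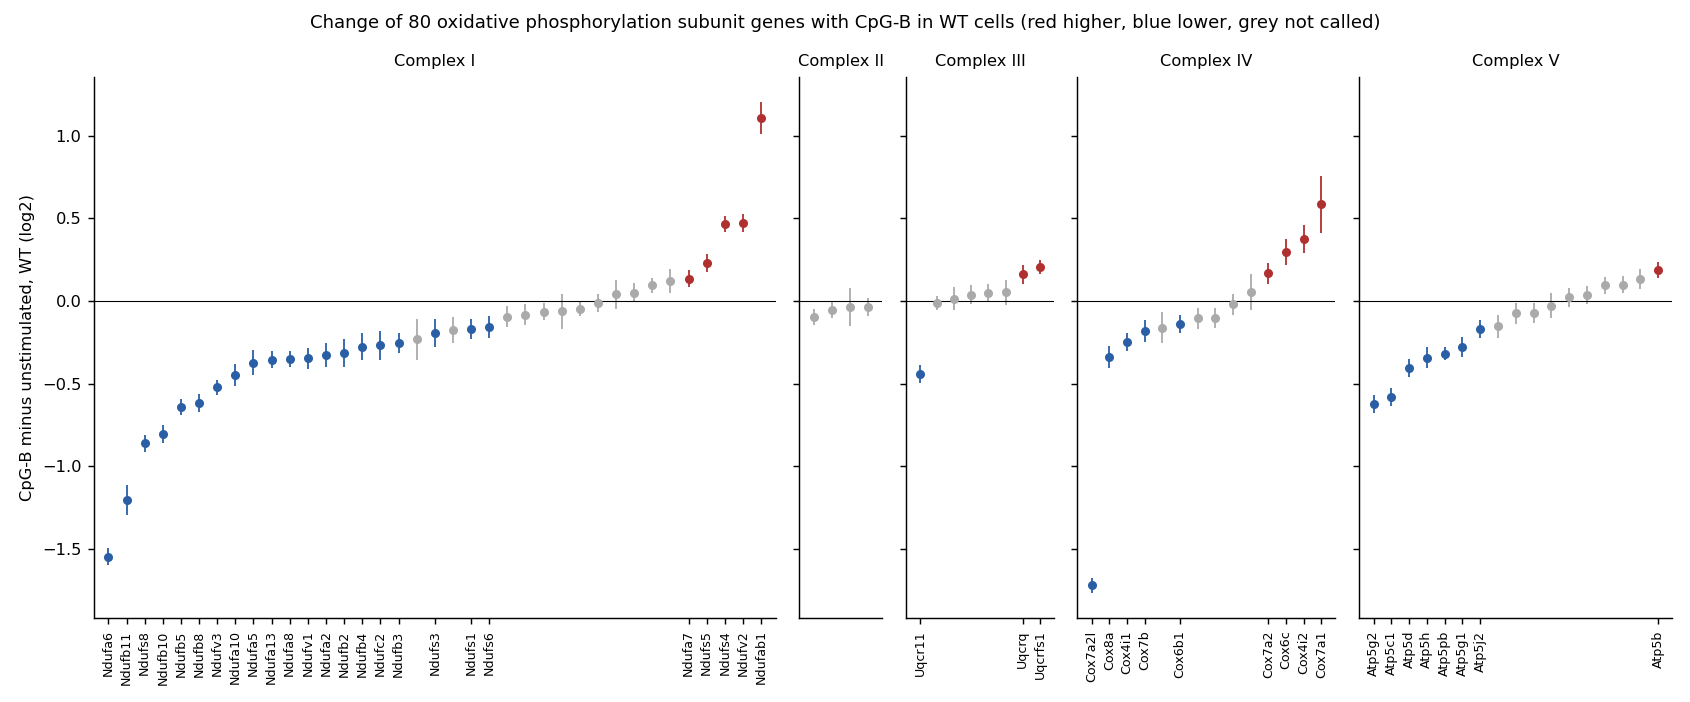
Change with CpG-B in WT (y axis, log2) of each of the 80 subunit genes, ordered within complexes I to V; bars are the standard error from the fit, 3 arrays a group, red is called higher, blue lower and grey not called, and called genes are named on the x axis. Ndufa6, Ndufb11 and Cox7a2l fell by more than 1 and Ndufab1 rose by more than 1.

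Complex II, succinate dehydrogenase, showed no call in WT by the probes that stand for its genes. The changes were -0.10 ± 0.05 for Sdha, the flavoprotein, and -0.04 ± 0.05 for Sdhb, the iron-sulfur subunit. The second Sdhb probe was called lower in WT at -0.15 (adjusted p = 0.0125) and in Irf5-KO at -0.22 (adjusted p = 0.00103, limma). The membrane anchors were at -0.05 ± 0.05 (Sdhc) and -0.04 ± 0.11 (Sdhd). Sdhd stood at 4.42, 5.08 and 5.10 unstimulated and 4.85, 4.77 and 4.85 with CpG-B. WT unstimulated replicate 1 was the low array, and without it the change was -0.26 and called (adjusted p = 9.86e-05, limma). In the other genotypes 1 of these 4 genes was called once by these probes, Sdhb in Lyn-KO at -0.15 ± 0.05 (adjusted p = 0.0204), a call that ended without Lyn-KO unstimulated replicate 3 (-0.13). Acod1, which is not a member and makes itaconate, an inhibitor of this complex, rose by 2.22 ± 0.27 in WT.

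In complex III, cytochrome c reductase, 1 of 8 genes fell and 2 rose in WT. Uqcr11, a small supernumerary subunit, went from 5.60, 5.53 and 5.60 to 5.11, 5.10 and 5.20 (-0.44 ± 0.05, adjusted p = 5.83e-07), with no overlap. Uqcrfs1, the Rieske iron-sulfur protein that takes electrons from ubiquinol, went from 5.20, 5.16 and 5.21 to 5.36, 5.44 and 5.39 (0.21 ± 0.04, adjusted p = 0.000243). Uqcrq went from 6.20, 6.24 and 6.25 to 6.40, 6.35 and 6.42 (0.16 ± 0.06, adjusted p = 0.0162). The second Uqcrq probe was at 0.02 (adjusted p = 0.787) and not called. Both of these rises lay above the unstimulated arrays at this scaling and turned to -0.03 and -0.04 with quantile normalisation, and the call of Uqcrq ended without WT unstimulated replicate 1 or WT CpG-B replicate 3 (0.15 each). The structural core proteins Uqcrc1 and Uqcrc2 were at 0.05 ± 0.07 and -0.01 ± 0.04 and not called. Uqcrb, a small subunit, was at 0.05 ± 0.05 and not called, while 1 of its other probes was at 0.31 and called (adjusted p = 0.00152, limma).

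In complex IV, cytochrome c oxidase, 5 of 14 genes fell and 4 rose in WT. The fall of Cox7a2l was the largest of all 80 genes. This protein links complexes III and IV into supercomplexes, and the C57BL/6 strain is known for a shortened form of it. Its WT levels were 7.22, 7.10 and 7.20 unstimulated and 5.38, 5.44 and 5.54 with CpG-B (-1.72 ± 0.05, 3.3-fold, adjusted p = 2.54e-16). Its 3 probes gave -1.72, -1.95 and -1.76. The structural subunits Cox8a (-0.34 ± 0.07), Cox4i1 (-0.25 ± 0.05), Cox7b (-0.18 ± 0.06) and Cox6b1 (-0.14 ± 0.05) fell less. Calls of the last 2 ended without WT unstimulated replicate 3 (-0.16 and -0.12), and without WT CpG-B replicate 1 (-0.15 and -0.09) or 2 (-0.16 and -0.12).

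The rises in complex IV were partly those of isoforms known from other tissues. Cox7a1, the heart and muscle isoform, stood at -0.78, -0.68 and -0.56 without and -0.48, 0.46 and -0.25 with CpG-B (0.58 ± 0.17, adjusted p = 0.00578). Its stimulated arrays spread widely, and without WT CpG-B replicate 2 the change was 0.31. Cox4i2, the lung isoform that responds to low oxygen, stood at -0.94, -1.08 and -0.81 and then at -0.44, -0.60 and -0.66 (0.38 ± 0.09, adjusted p = 0.00075). The testis isoform Cox6b2 was detected too and was at 0.05 ± 0.11, not called. Cox6c (0.30 ± 0.08) and Cox7a2 (0.17 ± 0.06), both general subunits, rose, but with quantile normalisation Cox6c was not called at 0.10 and Cox7a2 turned to -0.07. The Cox7a2 call also ended without WT unstimulated replicate 1 (0.16) or 2 (0.15) or WT CpG-B replicate 1 (0.16) or 3 (0.14).

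Complex IV can also change by exchange of a subunit. AA467197 encodes a small relative of Ndufa4, a protein filed under complex I by name that is now placed in complex IV, and takes its position there in activated cells. AA467197 is not a member, and its WT levels rose by 4.21 ± 0.11 (adjusted p = 1.92e-16), more than any member moved. Ndufa4 itself went from 4.84, 4.97 and 5.07 to 4.65, 4.84 and 4.85 (-0.18 ± 0.08, adjusted p = 0.056) and was called in no genotype. It was called in WT without WT unstimulated replicate 1 (-0.24) or WT CpG-B replicate 3 (-0.21), and in Irf5-KO without Irf5-KO CpG-B replicate 2 (-0.20). With CpG-B the rise of AA467197 was larger in Irf5-KO by 1.08 ± 0.16 and in DKO by 1.12 ± 0.16 than in WT.

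In complex V, the ATP synthase, 7 of 17 genes fell and 1 rose in WT. Atp5g2, 1 of 3 genes for the membrane ring subunit c, went from 7.49, 7.53 and 7.53 to 6.91, 6.89 and 6.87 (-0.62 ± 0.06, adjusted p = 1.13e-08). The other genes for the same protein were Atp5g1, at -0.28 ± 0.06, and Atp5g3, at -0.07 ± 0.06, which was not called. Atp5c1, the central stalk subunit gamma, went from 6.12, 6.03 and 6.14 to 5.49, 5.45 and 5.61 (-0.58 ± 0.06, adjusted p = 3.13e-08). Atp5d, the stalk subunit delta, went from 4.79, 4.91 and 4.74 to 4.45, 4.38 and 4.40 (-0.40 ± 0.06, adjusted p = 2.63e-06). In none of these 3 did the groups overlap, as for 70.9% of all features. Atp5b, the catalytic beta subunit, moved the other way, from 7.13, 7.04 and 7.14 to 7.35, 7.21 and 7.31 (0.19 ± 0.05, adjusted p = 0.00263). Its partner Atp5a1, the alpha subunit, was at 0.10 ± 0.05 and not called. Of the smaller falls, that of Atp5j2 (-0.17 ± 0.06) was not seen by its second probe (-0.02, not called).

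**Figure D3:**
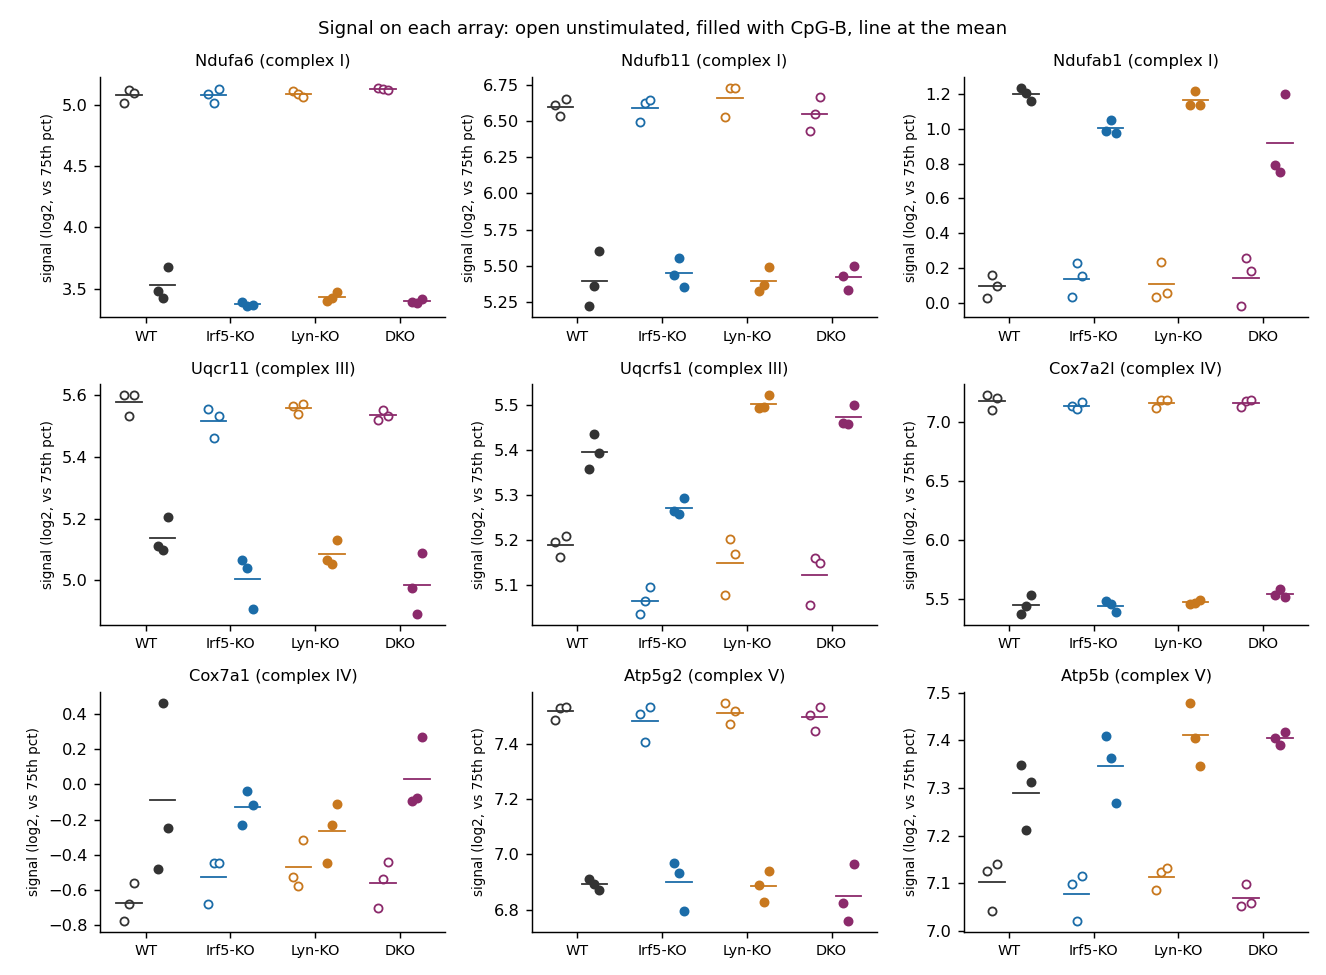
Log2 signal relative to the 75th percentile of the array (y axis) of 9 subunit genes on each of the 24 arrays, by genotype (x axis); open points are unstimulated, filled points had CpG-B, and lines are means of 3 arrays. Ndufa6 and Cox7a2l separate by more than 1 in every genotype, while Atp5b and Uqcrfs1 shift upwards by less than 0.4.

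Directions of the response were like those of WT in the other genotypes, and so were the counts of members that fell. At this scaling the count that rose differed more, from 9 to 19 beside 12 in WT. In Irf5-KO 33 members fell and 9 rose (35.2% and 31.6% of all features), in Lyn-KO 31 fell and 17 rose (36.1% and 32.8%), and in DKO 30 fell and 19 rose (35.9% and 34.6%). The median changes were -0.10, -0.06 and -0.04, against -0.02, -0.01 and 0.02 over all features. Over the 2021 brightest features, which hold 51 of the 80 members, they were -0.09, -0.09 and 0.01. With quantile normalisation the counts were 67 and 5, 54 and 6, and 63 and 7, beside 57 and 6 in WT. The count that rose then ran only from 5 to 7. Across the 80 genes the changes of any 2 genotypes correlated at 0.918 to 0.962 (Pearson, a description over genes, from arrays not shared between genotypes but hybridised on the same 3 slides).

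A group of 22 genes (27.5% of members) fell in all 4 genotypes, beside 27.1% of all features. It comprised 14 genes of complex I, 1 of complex III, 2 of complex IV and 5 of complex V. The 6 that rose in all 4 (7.5%, beside 22.7% of all features) were Atp5b, Cox4i2, Ndufab1, Ndufs4, Uqcrfs1 and Uqcrq, of which Uqcrq turned sign in all 4 genotypes and Uqcrfs1 in WT, Irf5-KO and DKO with quantile normalisation. The second probe of Uqcrq was not called in WT (0.02) or Irf5-KO (0.05). The call of Cox4i2 in Irf5-KO ended in 17 of 35 alternatives. The remaining members include 15 that were called in no genotype, and no member was called higher in 1 genotype and lower in another.

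**Figure D4:**
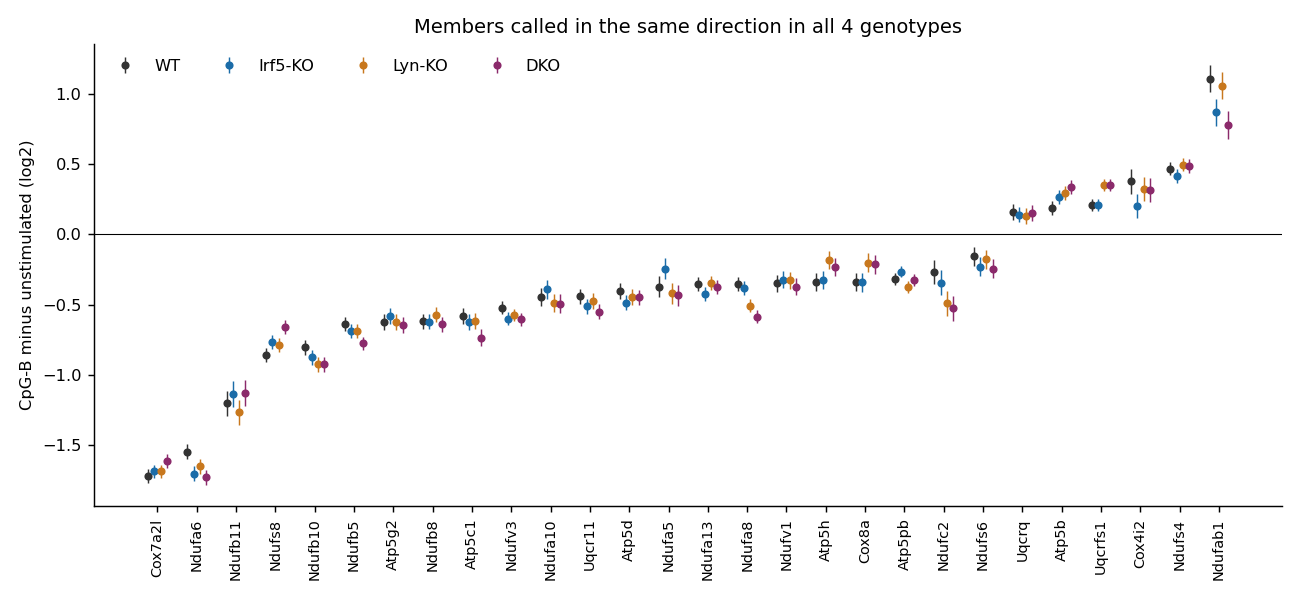
Change with CpG-B (y axis, log2, with standard error, 3 arrays a group) in each genotype for the 28 subunit genes called in 1 direction in all 4 genotypes. The 4 genotypes lie close together for most genes: Cox7a2l ranges from -1.72 to -1.61 and Ndufs4 from 0.42 to 0.50.

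The largest falls had like sizes in each genotype. Cox7a2l changed by -1.72 ± 0.05 (WT), -1.69 ± 0.05 (Irf5-KO), -1.69 ± 0.05 (Lyn-KO) and -1.61 ± 0.05 (DKO). Ndufa6 changed by -1.55 ± 0.05 (WT), -1.71 ± 0.05 (Irf5-KO), -1.65 ± 0.05 (Lyn-KO) and -1.73 ± 0.05 (DKO), Ndufb11 by -1.20 ± 0.09 (WT), -1.14 ± 0.09 (Irf5-KO), -1.27 ± 0.09 (Lyn-KO) and -1.13 ± 0.09 (DKO) and Ndufb10 by -0.80 ± 0.05 (WT), -0.88 ± 0.05 (Irf5-KO), -0.93 ± 0.05 (Lyn-KO) and -0.93 ± 0.05 (DKO). Over 35 alternatives the WT change of Cox7a2l ran from -1.84 to -1.67 and that of Ndufa6 from -1.80 to -1.49.

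Without CpG-B the genotypes differed little in these genes. In Irf5-KO against WT 1 member was called (0.737% of all features), Cox6b2. Its levels were -0.72, -0.82 and -0.90 in WT and -1.40, -1.42 and -1.27 in Irf5-KO (-0.55 ± 0.11, adjusted p = 0.0224, limma). They did not overlap, as for 18.0% of all features. The call ended without Irf5-KO replicate 1 (-0.53) or 2 (-0.52) or WT replicate 1 (-0.50) or 2 (-0.56). No member was called in Lyn-KO against WT (4.58% of all features) or DKO against WT (6.78%). None was called in DKO against Irf5-KO (5.35%) or DKO against Lyn-KO (0.163%). At an unadjusted p under 0.05 the members numbered 3, 0, 0, 1 and 0 in these 5 comparisons.

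Markers of other cell types did differ between the genotypes. All 7 B cell markers were lower in unstimulated Lyn-KO and DKO than in WT, with medians of -3.47 and -3.29. With CpG-B the mean level of these markers ran from 1.25 to 1.40 for WT arrays, from 1.62 to 1.91 for Irf5-KO, from -0.17 to 0.01 for Lyn-KO and from -0.60 to -0.36 for DKO. In DKO against WT, 6 of 7 were then called lower, and 5 of 8 neutrophil markers were lower and 1 higher. Of all features 24.9% were higher and 19.9% lower in that comparison. Type 1 conventional dendritic cell markers ran from 1.83 to 2.08 in WT and from 2.58 to 2.63 in DKO with CpG-B (5 of 8 called higher, 1 lower), and the 4 mast cell and basophil markers measured from -1.81 to -0.96 and from -0.55 to 0.01 (2 called higher). Plasmacytoid markers ran from 5.14 to 5.34 in WT, from 4.46 to 4.66 in Irf5-KO, from 5.66 to 5.82 in Lyn-KO and from 5.11 to 5.25 in DKO with CpG-B. The part of all these markers in the comparisons below was not tested.

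With CpG-B, 19 members differed between DKO and WT, 10 higher and 9 lower, beside 24.9% and 19.9% of all features. The differences were small, none reaching 2-fold. In Irf5-KO against WT 4 members were called (25.5% of all features), or 2 without Irf5-KO CpG-B replicate 1 or 3. In Lyn-KO against WT 6 were (25.2%), or 3 without Lyn-KO CpG-B replicate 3. In DKO against Irf5-KO 11 were higher and 5 lower (18.1% and 14.9%). In DKO against Lyn-KO 8 were called (31.5%), or 2 to 5 on leaving out any 1 Lyn-KO CpG-B array. That count was 4 without DKO CpG-B replicate 1 or 2. It was 5 without some arrays outside the comparison, such as any 1 Irf5-KO unstimulated array. These comparisons share groups, so their counts are not independent. The count in DKO against WT was 12 without DKO CpG-B replicate 3, and that in DKO against Irf5-KO was 8 without Irf5-KO CpG-B replicate 1 and 9 without DKO CpG-B replicate 3. The counts also depended on the other settings tried. They ran from 7 (only the compared groups fitted) to 31 (quantile normalisation) in DKO against WT and from 4 to 20 under the same settings in DKO against Irf5-KO. In DKO against Lyn-KO they ran from 1 (no filter on dim probes) to 21 (quantile normalisation). In Irf5-KO against WT they ran from 1 (only the compared groups) to 12 (quantile normalisation), with 9 under the replicate block, and in Lyn-KO against WT from 1 (only the compared groups) to 9 (replicate block).

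Ndufv2, a core subunit of the NADH-oxidising module, was called in each of these 5 comparisons. Its levels with CpG-B were 5.29, 5.36 and 5.32 for WT, 4.97, 5.09 and 5.03 for Irf5-KO, 5.07, 5.06 and 4.99 for Lyn-KO and 4.83, 4.72 and 4.73 for DKO. WT was highest, both single knockouts lay between and did not separate from each other, and DKO was lowest. Unstimulated levels were 4.95, 4.79 and 4.81 for WT, 4.67, 4.83 and 4.73 for Irf5-KO, 4.74, 4.83 and 4.74 for Lyn-KO and 4.79, 4.80 and 4.80 for DKO, and these overlapped. With CpG-B, DKO against WT gave -0.56 ± 0.05 (adjusted p = 1.02e-07). Irf5-KO against WT gave -0.30 ± 0.05, Lyn-KO against WT -0.28 ± 0.05, DKO against Irf5-KO -0.27 ± 0.05 and DKO against Lyn-KO -0.28 ± 0.05. The response itself was 0.47 ± 0.05 (WT), 0.28 ± 0.05 (Irf5-KO), 0.27 ± 0.05 (Lyn-KO) and -0.03 ± 0.05 (DKO), and the difference between DKO and WT was -0.51 ± 0.08 (adjusted p = 5.01e-05). The call of the difference held in all 35 alternatives, in which it ran from -0.60 to -0.48. The rises in Irf5-KO and Lyn-KO fell to 0.02 and 0.05 with quantile normalisation and were then not called, and with normexp background correction as well that in Irf5-KO turned to -0.01.

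In complex IV, 4 of 14 genes (28.6%, near the 24.9% of all features) were higher in DKO than in WT with CpG-B and none was lower. They were Cox5a (0.27 ± 0.07), Cox6a1 (0.24 ± 0.06), Cox7c (0.23 ± 0.06) and Cox4i1 (0.16 ± 0.05), all structural subunits around the catalytic core. With quantile normalisation Cox5a, Cox7c and Cox4i1 were no longer called, at 0.17, 0.10 and 0.04, and Cox4i1 was at -0.04 with normexp. The other probes of Cox7c gave 0.43, called, and 0.01, not called. The Cox4i1 call also ended without WT CpG-B replicate 3 (0.13) or DKO CpG-B replicate 1 (0.15) or 3 (0.14). For Cox4i1 the levels with CpG-B were 7.03, 7.07 and 6.97 for WT, 6.98, 6.98 and 6.85 for Irf5-KO, 7.24, 7.18 and 7.32 for Lyn-KO and 7.19, 7.13 and 7.22 for DKO. The arrays of Lyn-KO and DKO were above all those of WT and Irf5-KO. In Lyn-KO against WT Cox4i1 was at 0.22 ± 0.05 (adjusted p = 0.00489), or 0.12 and not called with normexp. Ndufa8, an accessory subunit of complex I on the intermembrane side, was at -0.19 ± 0.05 there. Cox4i1 was also higher in DKO than in Irf5-KO, by 0.24 ± 0.05.

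Other genes with the largest differences were these. Sdhd was at 4.85, 4.77 and 4.85 in WT and 5.15, 5.19 and 5.21 in DKO with CpG-B (0.36 ± 0.11, adjusted p = 0.015), and without CpG-B WT replicate 1 stood alone at 4.42 against 5.08 and 5.10. With quantile normalisation the difference was 0.21 and not called. The WT and DKO groups with CpG-B did not overlap, as for 53.5% of all features. DKO against Lyn-KO gave 0.32 ± 0.11 for Sdhd, a call that ended on leaving out any of the 6 arrays of these groups (0.30 to 0.33). Ndufs3, a core subunit of complex I, was lower in DKO than in Irf5-KO at -0.35 ± 0.08 (adjusted p = 0.00301), with levels of 4.48, 4.30 and 4.46 against 4.88, 4.82 and 4.59. Ndufs5, another accessory subunit on the intermembrane side, was lower in Irf5-KO than in WT at -0.19 ± 0.05, a call that ended without Irf5-KO CpG-B replicate 3 (-0.16). Its levels were 5.28, 5.34 and 5.22 against 5.43, 5.46 and 5.53. Neither pair of groups overlapped.

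Some of these calls changed on leaving out single arrays. Ndufab1 was at 0.79, 0.75 and 1.20 in DKO with CpG-B, a difference from WT of -0.29 ± 0.10. DKO replicate 3 lay within the WT range, and the call ended without DKO CpG-B replicate 1 (-0.22) or 2 (-0.20) or WT CpG-B replicate 1 (-0.27) or 2 (-0.28). Leaving out DKO CpG-B replicate 3 instead added calls of Ndufab1. It was then lower in DKO than in Lyn-KO (-0.39) and Irf5-KO (-0.23) with CpG-B. Its response in DKO minus WT was then -0.47 and called, against -0.33 and not called with all arrays. Ndufa6 was at 3.39, 3.35 and 3.37 in Irf5-KO with CpG-B, a difference from WT of -0.16 ± 0.05, and without WT CpG-B replicate 3 it was -0.08 and not called. That call also ended without any 1 of the Irf5-KO CpG-B arrays (-0.17 to -0.15). Ndufa12, an accessory subunit of complex I, was lower in DKO than in Lyn-KO with CpG-B at -0.24 ± 0.09. The Lyn-KO arrays were at 5.21, 5.04 and 5.26 and every DKO array lay below the lowest of them, but the call ended on leaving out DKO CpG-B replicate 1 (-0.26) or 2 (-0.19), Lyn-KO CpG-B replicate 1 (-0.22) or 3 (-0.20), or 1 of 7 arrays of other groups (-0.24 each).

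The response to CpG-B differed between a knockout and WT for 12 gene results in all. In DKO 6 members responded more positively and 5 more negatively than in WT, beside 17.3% and 13.2% of all features. In Irf5-KO 1 member did (12.6%), Cox6b2 at 0.56 ± 0.16, a call that ended without Irf5-KO unstimulated replicate 1 (0.54) or 2 (0.53), WT CpG-B replicate 2 or WT unstimulated replicate 1 (0.51 each), and in Lyn-KO none (11.1%), although 8 members had an unadjusted p under 0.05 there. The count of 11 in DKO was 7 without WT CpG-B replicate 1, 3 with no filter on dim probes, 5 with only the compared groups fitted and 18 with quantile normalisation. The largest in DKO was that of Ndufs7, a core subunit next to the ubiquinone site, at -0.55 ± 0.17 (adjusted p = 0.022). Its levels without CpG-B were 4.27, 4.91 and 4.90 in WT and 4.99, 4.93 and 4.90 in DKO, and with CpG-B 4.47, 4.36 and 4.55 in WT and 4.26, 4.06 and 4.16 in DKO. The low WT array without CpG-B was replicate 1, and leaving it out gave a difference of -0.33, still called, and a response in WT of -0.45, called, against -0.23 ± 0.12, not called, with all arrays. The call of the difference ended without DKO CpG-B replicate 2 or WT CpG-B replicate 3 (-0.50 each). Ndufb2, a membrane-arm subunit of complex I, fell in WT (-0.32 ± 0.08) and was at 0.05 ± 0.08 in DKO, a difference of 0.37 ± 0.12. Its call ended without WT CpG-B replicate 1 (0.27), WT unstimulated replicate 1 (0.31), DKO CpG-B replicate 3 or DKO unstimulated replicate 1 (0.33 each).

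**Figure D5:**
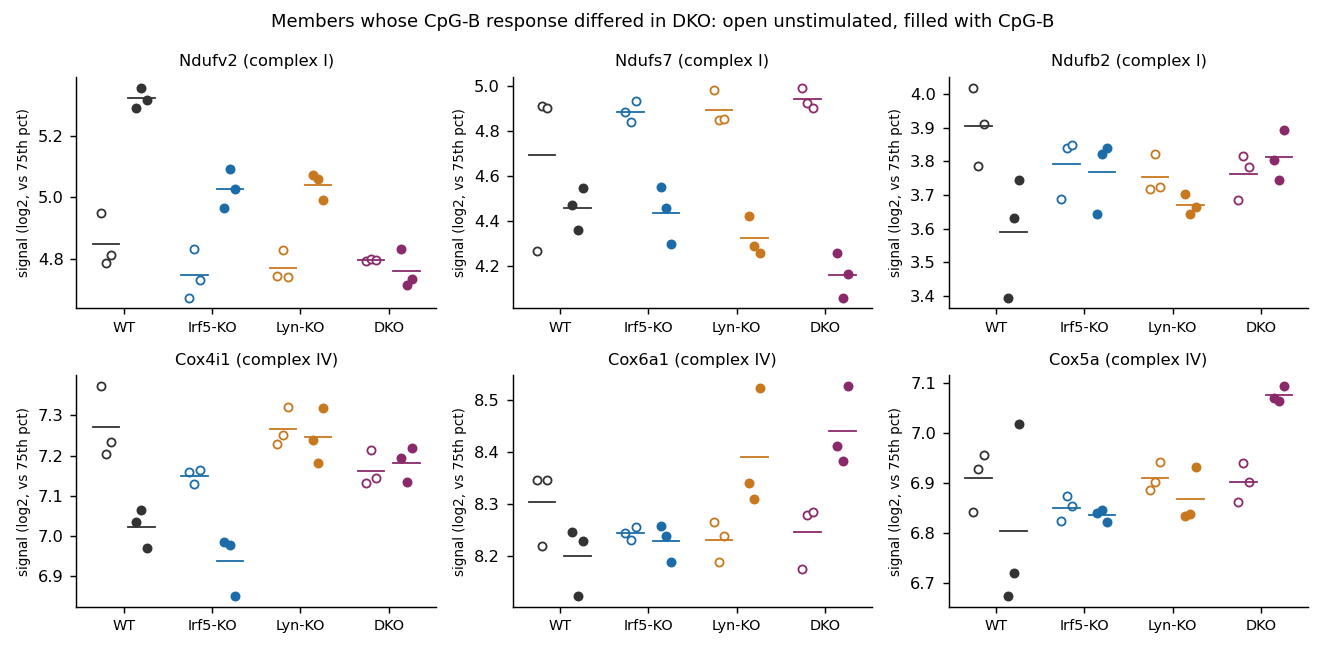
Log2 signal relative to the 75th percentile of the array (y axis) of 6 subunit genes whose CpG-B response differed between DKO and WT, on each of the 24 arrays by genotype (x axis); open points are unstimulated, filled points had CpG-B, and lines are means of 3 arrays. With CpG-B, Ndufv2 lies at 5.29 to 5.36 in WT and at 4.72 to 4.83 in DKO.

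Other genes of the pathway included larger changes. Of 46 measured assembly factors, 14 rose and 19 fell in WT, and 7 changed at least 2-fold. Of all features 31.2% rose and 37.2% fell in WT, and 28.0% changed at least 2-fold. Risers included helpers of complex IV, the copper chaperone Sco1 (2.79 ± 0.13), the membrane insertase Cox18 (1.59 ± 0.06) and the haem A synthase Cox15 (1.34 ± 0.07), and Acad9 (1.42 ± 0.06), a complex I assembly factor. Among those that fell were Uqcc3 (-1.19 ± 0.06), for complex III, and Nubpl (-0.96 ± 0.06), which delivers iron-sulfur clusters to complex I. Cox16 (-0.60) and Cox20 (-0.20), also helpers of complex IV, fell too. Both calls ended without WT CpG-B replicate 2 (-0.59 and -0.16), and that of Cox16 also without some other arrays. Of 18 genes for electron carriers and ubiquinone synthesis 8 rose and 8 fell, with cytochrome c, Cycs, at 0.90 ± 0.10 and the ubiquinone kinase-like Coq8a at -2.00 ± 0.18. Of 19 genes of the citric acid cycle and pyruvate entry 2 rose and 13 fell (median -0.42), among them Idh3g (-1.12 ± 0.05).

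Of 17 regulators of mitochondrial biogenesis 3 rose and 11 fell. The mitochondrial transcription factor Tfb2m was at -1.39 ± 0.08, the nuclear receptor Esrra at -0.63 ± 0.09, Tfam at -0.26 ± 0.07 and Nrf1 at -0.19 ± 0.08. Without WT unstimulated replicate 1 Nrf1 was at -0.31, and its call ended without WT unstimulated replicate 2 (-0.12) or 3 (-0.13) or WT CpG-B replicate 2 (-0.19) or 3 (-0.17). The 2 GABP subunits diverged, Gabpa at -0.32 ± 0.09 and Gabpb1 at 0.95 ± 0.12. Of 8 genes for ATP and phosphate exchange 6 fell and 1 rose, with Slc25a5, an ADP/ATP carrier, at -0.60 ± 0.05 and Atpif1, the inhibitor of complex V, at -0.81 ± 0.05. Among 77 mitochondrial ribosomal proteins 22 rose and 36 fell (median -0.13), and among 80 cytosolic ribosomal proteins 1 rose and 50 fell (median -0.25). Of 13 inducible modifiers of respiration, 6 rose and 5 fell. Nos2, whose product nitric oxide inhibits complex IV, rose by 3.84 ± 0.17, and the glycolytic regulators Pfkfb3 and Hk2 rose by 3.04 ± 0.09 and 1.90 ± 0.08. Lower in WT with CpG-B were the mean levels of Ucp2 (3.99, then 2.69) and Higd1a (3.47, then 2.57), also mitochondrial genes. Over all features in WT, 31.2% rose and 37.2% fell, with a median of -0.03.

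Between DKO and WT with CpG-B, where 24.9% of all features were higher and 19.9% lower, 5 of the 46 assembly factors were higher and 21 lower (median -0.14), and 6 of the 77 mitochondrial ribosomal proteins were higher and 38 lower (median -0.15). Of the 8 genes for ATP and phosphate exchange 5 were higher and none lower, and of the 80 cytosolic ribosomal proteins 2 were higher and none lower. The subunits themselves had a median of 0.01 in this comparison, beside 0.06 over all features. The cell type markers given above moved in the same comparison, and their part was not tested.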

How the data were processed

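Per the labels' protocols, RNA was labelled for 1-colour arrays. Per the file headers, the deposited intensities are processed signals written by Agilent Feature Extraction (version 10.7.3.1). The series table holds the authors' deposited log2 values, with column medians from -0.06 to 0.03. Its deviations from each probe's mean over 24 arrays matched those used here (95% within 0.0143), which gives scale and direction; its centring is not stated. It served as an alternative.

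Control spots and 4351 outlier spots were left out, and 26642 of 55681 probes were kept (well above background on all 3 arrays of a group). Signals were taken as log2 minus the 75th percentile of the array, with no pseudocount. Accessions were matched to RefSeq symbols, and the probe with the highest mean stood for a gene. This gave 20210 features, 12649 of them named. limma 3.58.1 (R 4.3.3) fitted 1 mean for each of 8 groups, with 17 contrasts, 16 residual degrees of freedom and Benjamini-Hochberg adjusted p under 0.05 as the call. The fit was tested on simulated data. Array values are given for the 3 called genes with the largest change per complex, the largest in the other direction, and at most 3 per genotype contrast; others may be named. Members and lists were chosen with earlier results of these data known. Alternatives were background correction, scaling, filters, probe choice, the replicate block, the samples fitted, the variance prior, the deposited table and leaving out each array.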

Additional observations from a re-analysis of the deposited data

Results flagged for a closer look

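The response to CpG-B differed from that of WT for 12 subunit gene results by the test of the difference itself (limma, adjusted over all features). Each had 1 sign on all 3 slides, which is no separate support, since the calls came from the same arrays. In DKO the response was more negative than in WT for Ndufs7 (-0.55), Ndufv2 (-0.51), Ndufs5 (-0.27), Ndufa8 (-0.23) and Atp5a1 (-0.23). It was more positive for Ndufb2 (0.37), Cox6a1 (0.30), Cox5a (0.28), Cox4i1 (0.27), Ndufa1 (0.24) and Ndufs8 (0.20). In Irf5-KO it was more positive for Cox6b2 (0.56).

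The calls of Cox4i1, Cox6a1, Ndufa8, Ndufs5 and Ndufv2 held with any 1 array left out, and those of the other 7 did not. The call of Atp5a1 ended without DKO CpG-B replicate 2 (-0.19), DKO unstimulated replicate 3 or WT CpG-B replicate 1 (-0.21 each). The call of Cox5a ended without WT CpG-B replicate 1 (0.22) or 2 (0.24), WT unstimulated replicate 3 or DKO unstimulated replicate 1 (0.26 each), or DKO CpG-B replicate 3 (0.27). That of Ndufa1 ended without WT CpG-B replicate 1 (0.19), DKO CpG-B replicate 3 (0.20), or DKO or WT unstimulated replicate 3 (0.22 each). The call of Ndufs8 ended on leaving out any of 8 arrays, with values from 0.16 to 0.21. On single slides Ndufs7 gave -0.94, -0.32 and -0.38, and Ndufb2 gave 0.75, 0.08 and 0.28. Ndufv2 gave -0.30, -0.65 and -0.57, and Cox4i1 gave 0.40, 0.06 and 0.34. The difference of Cox4i1 was 0.12 and not called with quantile normalisation, and turned to -0.05 with normexp.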

How the results depend on the processing

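Of 275 comparisons of a count or median with another setting, 65 moved by over 1.5 times or past the replicate spread, and so did 32 of 600 with 1 array left out. The mean of the probes of a gene moved none. Of 250 gene results 134 kept their call in every alternative, and 106 lost it at least once. With 1 array left out, 38 of 184 responses lost their call, 1 of 1 unstimulated difference, 33 of 53 differences with CpG-B and 7 of 12 differences of responses. Why a setting moved a value was not tested. All 80 genes were above background on every array, and 3 arrays a group limit the precision. Of the 80, 51 were among the 2021 brightest features, whose WT median moved from -0.12 to -0.18 with quantile normalisation.

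Quantile normalisation gave 6 higher and 57 lower for WT (median -0.25), 5 and 67 for Irf5-KO (-0.31), 6 and 54 for Lyn-KO (-0.23) and 7 and 63 for DKO (-0.34). It also gave 12 calls in Irf5-KO against WT, 31 in DKO against WT and 21 in DKO against Lyn-KO with CpG-B, and 3, 1 and 18 differences of the response from WT in Irf5-KO, Lyn-KO and DKO. Normexp with quantile normalisation gave 7 and 54 for WT (-0.26), 5 and 61 for Irf5-KO (-0.32), 5 and 50 for Lyn-KO (-0.25) and 7 and 58 for DKO (-0.35), with 3 calls in Lyn-KO against WT with CpG-B and 4, 1 and 18 differences of the response. The median of all features was then -0.09 to -0.05 in these responses.

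Without a filter on dim probes there were 0 calls in Irf5-KO and 1 in DKO against WT unstimulated. With CpG-B there were 2, 3 and 11 in Irf5-KO, Lyn-KO and DKO against WT, 7 in DKO against Irf5-KO and 1 in DKO against Lyn-KO, and the differences of the response numbered 0 in Irf5-KO and 3 in DKO. Fitting only the groups of each contrast gave 0 calls in Irf5-KO against WT unstimulated. With CpG-B it gave 1, 1 and 7 in Irf5-KO, Lyn-KO and DKO against WT, 4 in DKO against Irf5-KO and 3 in DKO against Lyn-KO, and differences of 0 in Irf5-KO and 5 in DKO. Scaling to the median gave a WT median of -0.041 and 2 differences in Irf5-KO. Every probe on its own, and a variance prior with trend, each gave 7 calls in Irf5-KO against WT with CpG-B, 2 differences in Irf5-KO and 1 in Lyn-KO. Probes detected on all arrays gave 1 difference in Lyn-KO, and the deposited series table gave 5 calls in DKO against Lyn-KO with CpG-B.

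With the replicate block there was 1 call in DKO against Irf5-KO unstimulated and 9 in Irf5-KO against WT with CpG-B, with 2 differences in Irf5-KO and 1 in Lyn-KO. Arrays of 1 number share a slide, and their deviations correlated at -0.08 to 0.29 over 84 pairs (median 0.05). Arrays of unlike number gave -0.27 to 0.13 over 168 pairs (median -0.03). The main fit did not pair the samples by number, and the replicate block was run as an alternative.

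With 1 array left out, the unstimulated counts ran from 0 to 1 in Irf5-KO against WT and in DKO against Irf5-KO. With CpG-B they ran from 2 to 5 for Irf5-KO, 3 to 7 for Lyn-KO and 12 to 22 for DKO against WT, from 8 to 20 in DKO against Irf5-KO and from 2 to 9 in DKO against Lyn-KO. The differences of the response ran from 0 to 3 for Irf5-KO, 0 to 2 for Lyn-KO and 7 to 13 for DKO.

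These 32 gene results turned sign in at least 1 setting. With quantile normalisation they were the response in WT (Cox7a2 -0.065, Ndufa7 -0.098, Ndufs5 -0.020, Uqcrfs1 -0.028, Uqcrq -0.042), the response in Irf5-KO (Ndufa1 -0.17, Uqcrfs1 -0.094, Uqcrq -0.12), the response in Lyn-KO (Atp5md -0.044, Cox7a2 -0.0046, Ndufa7 -0.067, Ndufb6 -0.018, Ndufc1 -0.089, Ndufs5 -0.099, Uqcrb -0.017, Uqcrq -0.086), the response in DKO (Atp5j -0.24, Atp5md -0.0045, Atp5o -0.099, Cox5a -0.022, Cox6c -0.12, Cox7a2 -0.13, Cox7c -0.17, Ndufa1 -0.12, Ndufa7 -0.22, Uqcrb -0.15, Uqcrfs1 -0.048, Uqcrq -0.18) and DKO against WT with CpG-B (Uqcrb -0.0015). With normexp as well they were the response in WT (Cox7a2 -0.11, Ndufa7 -0.26, Ndufs5 -0.16, Uqcrfs1 -0.10, Uqcrq -0.077), the response in Irf5-KO (Ndufa1 -0.17, Ndufv2 -0.013, Uqcrfs1 -0.11, Uqcrq -0.053), the response in Lyn-KO (Atp5md -0.027, Ndufa7 -0.078, Ndufc1 -0.10, Ndufs5 -0.043, Uqcrq -0.024), the response in DKO (Atp5j -0.30, Atp5o -0.13, Cox5a -0.0031, Cox6c -0.19, Cox7a2 -0.062, Cox7c -0.21, Ndufa1 -0.057, Ndufa7 -0.17, Uqcrb -0.11, Uqcrfs1 -0.029, Uqcrq -0.14), DKO against WT with CpG-B (Cox4i1 -0.040) and the response in DKO minus WT (Cox4i1 -0.050).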
